A study of Mus musculus with 4 samples.

Results

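Lung lineage transcription factors are DNA-binding proteins that set up and keep the identity of lung epithelial cells. The 10 described here are Nkx2-1, Foxa1, Foxa2, Foxa3, Foxp2, Cebpa, Sox9, Gata6, Klf5 and Elf3, chosen by name from the 32289 features of each matrix, and all 10 were found there. NKX2-1 is the homeodomain factor of lung and thyroid, binds surfactant and secretoglobin genes together with the forkhead factors FOXA1 and FOXA2, and is known in lung tumours for holding down a gastric programme. CEBPA is a basic leucine zipper factor needed for alveolar type 2 maturation and also a factor of myeloid cells, FOXP2 is a forkhead repressor of the lung epithelium, SOX9 marks the distal tips of the developing lung, GATA6 is a zinc finger factor of endoderm, KLF5 is a Krüppel-like factor of epithelia, and ELF3 is an epithelial ETS factor. Type 2 cells make surfactant, type 1 cells are the thin gas-exchange cells, and transitional cells are a keratin-rich state described between them after injury and in tumours.

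The cells came from lung tumours of mice whose shared alleles included p53frt (a p53 allele that the recombinase Flp deletes), Rosa-FSF-CreERT2 (a tamoxifen-dependent Cre that Flp switches on) and Hnf4aflox (an Hnf4a allele that Cre deletes). FlpO was delivered by an adenovirus under the mouse SPC promoter, which is active in type 2 cells, so CreERT2 could act only in cells that Flp had recombined. The mice received tamoxifen or vehicle 10 weeks after the virus, and individual macroscopic tumours were collected 2 weeks later; the labels name the vehicle as ethanol in one field and as corn oil in another. Each suspension was sampled before and after CD45-positive (immune) and CD31-positive (endothelial) cells had been removed on magnetic beads, which gave 4 groups with 1 library each: vehicle before, vehicle after, tamoxifen before and tamoxifen after depletion. The number of animals or tumours behind a library is not given in the sources used here, and all cells were cryopreserved, thawed and sorted as live before capture.

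The libraries held from 6558 to 7867 cell barcodes and from 92644997 to 144994771 UMIs (unique molecular identifiers, counts of captured RNA molecules), and 10 to 18 barcodes were shared between any 2 of them. After filtering, 6105 to 7355 cells per library remained, of which 969, 6516, 1008 and 7085 were epithelial-like in the order vehicle before, vehicle after, tamoxifen before and tamoxifen after depletion. Values of all 4 libraries are given in this order throughout. Levels are UMIs summed over the cells of a class in a library, as a share of all UMIs of that class scaled to a total of 1000000 (CPM), and 3′ counting does not make levels comparable between genes. Since each group is a single library, replicates cannot be compared and no p-value is given, and the bracketed 95% intervals cover counting error only. Hnf4a, the gene that tamoxifen should delete, was higher in epithelial-like cells of the libraries labelled tamoxifen (85.7 and 82.8 CPM) than in those labelled vehicle (53.8 and 55.1 CPM), and 3′ counts do not show whether an exon was removed.

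The epithelial-like cells fell into 19 clusters, of which 5 made up 3 states with names from marker genes: type 2-like, type 1-like and transitional. The 10 factors and 46 other lineage factors were kept out of the clustering genes, but the same cells were clustered, so differences between states are descriptions. Type 2-like cells numbered 307, 1373, 162 and 923, type 1-like cells 108, 597, 103 and 725, and transitional cells 77, 722, 74 and 750. The 13 type 2 markers summed to between 225700 and 263800 CPM in type 2-like cells, between 64090 and 130500 CPM in type 1-like cells and between 11280 and 19210 CPM in transitional cells, so the type 1-like cells still held much surfactant RNA. The 11 type 1 markers summed to between 5163 and 6151 CPM in type 1-like cells, against 1307 to 1818 CPM in the other 2 states. The 11 transitional markers summed to between 16070 and 17740 CPM in transitional cells, against 1337 to 7069 CPM in the other 2. The transitional cells were 1 cluster whose leading genes were Pyy, Tff1 and the mast cell proteases Mcpt1, Mcpt2, Mcpt8 and Tpsab1, while 2 to 4 of 5 mast cell markers were at 0 there in each library. Which cells carry the name depends on the clustering. At resolution 2 the Mcpt2 and Tff1 cluster was named gastrointestinal-like. With the factors among the clustering genes the Pyy and Tff1 cluster had no name. In both settings a cluster led by Procr and Serpinb2 was the transitional one. The type 1-like name depended on the clustering as well. Type 1-like cells numbered 14, 119, 62 and 340 at resolution 2. With the factors among the clustering genes they numbered 43, 259, 84 and 443. At resolution 2 a cluster led by Cyp2b10, Sec14l3 and Serpinb9, genes that lead a type 1-like cluster in the main clustering, had no name. Median UMIs per cell were 34419.5 and 35666 in transitional cells before depletion against 16066 to 20568.5 in the other states, and 19253.5 and 21867 after depletion against 10843 to 11761, so the states also differed in depth; its part in the values below was not tested.

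By the GENCODE M21 annotation of GRCm38, the forkhead genes lie at chr12:57540628-57546916 (Foxa1, minus strand), chr2:148042877-148046969 (Foxa2, minus), chr7:19013284-19023538 (Foxa3, minus) and chr6:14901349-15441977 (Foxp2, plus). Nkx2-1 lies at chr12:56531958-56536908 (minus), Cebpa at chr7:35119293-35121928 (plus), Sox9 at chr11:112782224-112787760 (plus), Klf5 at chr14:99298691-99315036 (plus), Elf3 at chr1:135253575-135258568 (minus) and Gata6 on chromosome 18. Foxp2 spans 540.6 kb, while the other 9 span between 2.6 and 33.6 kb. Genes on the opposite strand overlap Nkx2-1 (Gm26973), Gata6 (1010001N08Rik), Elf3 (Gm26642) and Cebpa (Gm45091), and in epithelial-like cells they held 23.6%, 13.2%, 0.658% and 0.0722% as many UMIs as their partner. The use of strand and of introns in counting is not given in the sources used here, so reads of these pairs could be split, and the values of Nkx2-1 and Gata6 are the more uncertain for it.

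The first question was where in the tumours the factors are found. All 10 were at least 2-fold higher in epithelial-like than in endothelial-like cells in every library with 30 cells of the class, against 13.3% of all genes tested. The same held against fibroblast-like (15.6% of all genes), T cell-like (23.0%), B cell-like (25.2%), NK cell-like (24.3%), neutrophil-like (38.7%), dendritic cell-like (25.5%), plasmacytoid dendritic cell-like (23.7%) and plasma cell-like cells (47.9%). Against alveolar macrophage-like cells (25.2% of all genes) and monocyte or macrophage-like cells (23.2%), 9 of 10 passed, and the exception was Cebpa. A factor that lay under 10 CPM in the other class passed the minimum through the epithelial-like cells and so had to differ. With means over cells Foxa3 did not pass against endothelial-like cells (9 of 10 passed) or alveolar macrophage-like cells (8 of 10). Of all genes 28.0% and 40.6% then differed in either direction. At a fold of 4 Foxa3 did not pass against endothelial-like cells either (9 of 10 passed, 15.5% of all genes in either direction).

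Nkx2-1 stood at 253.5, 203, 265 and 224 CPM in epithelial-like cells and between 1.08 and 33.5 CPM elsewhere. Foxa1 (49.6, 42.0, 44.25 and 45.75 CPM) and Foxa2 (74.1, 62.7, 87.3 and 80.6 CPM) reached at most 8.37 and 10.6 CPM in any other class. Foxa3 was detected at 15.3, 16.9, 11.5 and 11.3 CPM, Sox9 at 59.5, 49.6, 53.3 and 60.0 CPM and Elf3 at 55.0, 58.4, 41.1 and 48.5 CPM. Of these 6 genes, none came within 2-fold of its epithelial level in another class in the libraries compared.

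Cebpa was the factor shared with myeloid cells. Its level was 168, 134, 146 and 124 CPM in epithelial-like cells, 115 [109, 121] and 111 [106, 116] CPM in alveolar macrophage-like cells and 88.1 [84.7, 91.6] and 99.96 [95.5, 105] CPM in monocyte or macrophage-like cells of the 2 libraries before depletion. Neutrophil-like cells held 13.1 and 13.8 CPM and T cell-like cells 3.45 and 6.497 CPM. Macrophage RNA was scarce in the epithelial-like cells: the 8 alveolar macrophage markers summed to 49.3, 37.9, 48.7 and 13.2 CPM there and the 8 monocyte or macrophage markers to 74.0, 54.2, 76.7 and 61.7 CPM, and their part in the epithelial Cebpa values was not tested.

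Gata6 and Foxp2 were also detected outside the epithelium. Gata6, at 106, 105.5, 96.8 and 106 CPM in epithelial-like cells, stood at 17.6, 12.6, 17.6 and 23.1 CPM in endothelial-like cells and at 29.2, 18.96 and 13.1 CPM in the 3 libraries with enough fibroblast-like cells. Foxp2, at 250.1, 283, 324 and 356 CPM in epithelial-like cells, was uneven in endothelial-like cells (57.3, 7.93, 8.78 and 31.8 CPM) and reached 21.5 and 79.5 CPM in B cell-like cells. In the same B cell-like cells Nkx2-1 stood at 19.2 and 33.5 CPM and the 7 epithelial markers summed to 199 and 391 CPM, against 5508 to 7270 CPM in epithelial-like cells; the part of such RNA in the B cell values was not tested. Klf5, at 169, 166, 128 and 134 CPM in epithelial-like cells, had 16.6 and 15.4 CPM in neutrophil-like cells and at most 19.8 CPM in endothelial-like cells.

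**Figure D1:**
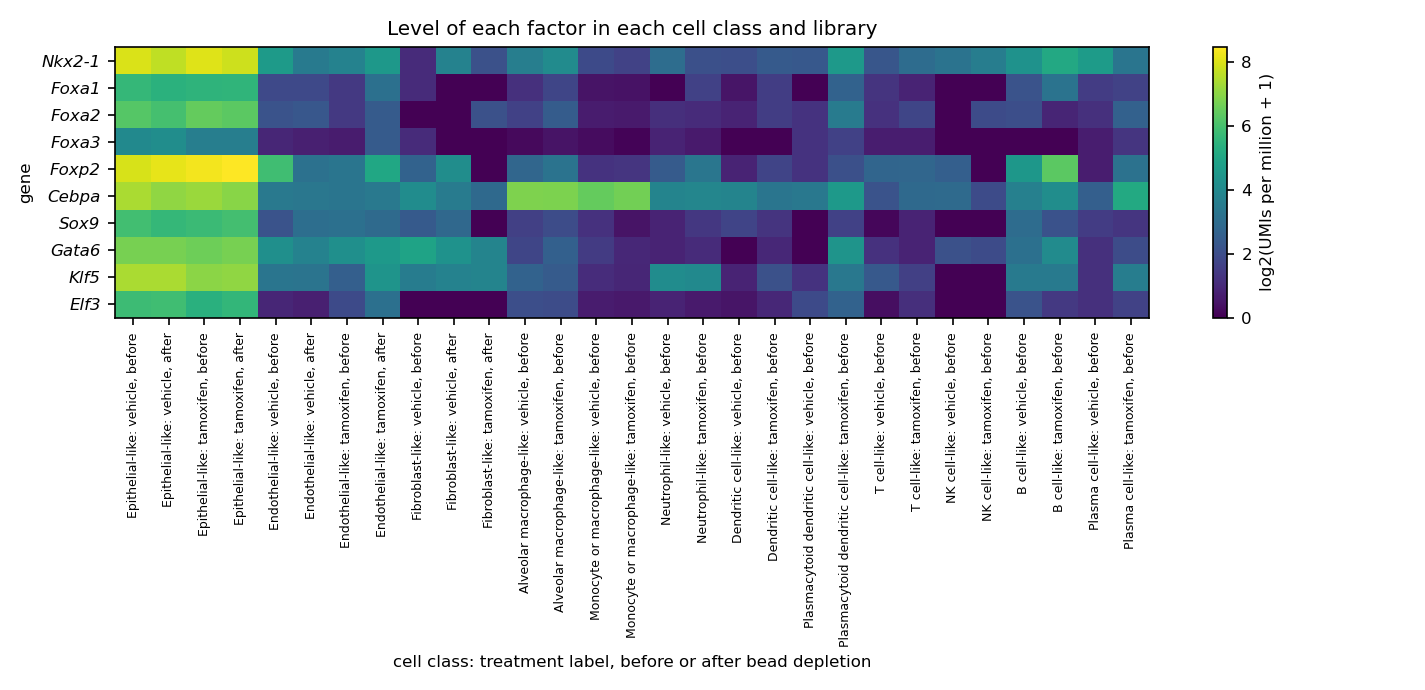
Level of each factor (vertical axis) in each cell class and library (horizontal axis), as log2 of CPM plus 1, from dark (0) to yellow. The 4 epithelial-like columns are the brightest for every factor, and Cebpa is also bright in the alveolar macrophage-like and monocyte or macrophage-like columns (88.1 to 115 CPM).

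To compare detection between libraries of different depth, every cell was thinned to 5000 UMIs and shallower cells were left out (68, 440, 34 and 367 epithelial-like cells). A Nkx2-1 UMI was then found in 67.6%, 59.4%, 69.1% and 63.9% of epithelial-like cells, against 1.28% and 3.03% of T cell-like cells in the libraries before depletion, which serve as the background from free RNA. Foxp2 was found in 45.5%, 49.2%, 53.2% and 56.0%, Cebpa in 50.7%, 44.2%, 45.4% and 42.5%, and Klf5 in 48.2%, 51.2%, 42.2% and 44.9%. Gata6 was found in 32.4% to 37.7%, Foxa2 in 24.9% to 30.5%, Elf3 in 17.0% to 24.5%, Foxa1 in 17.3% to 22.1%, Sox9 in 14.6% to 16.9% and Foxa3 in 4.82% to 6.09%. T cell-like cells had each of these 9 in at most 2.597%. Unthinned, when the median epithelial-like cell had 16849 to 28489 UMIs and the median T cell-like cell 5806 and 5995.5, the median share over factors and libraries was 69.5% in place of 31.4%. After thinning, an epithelial-like cell showed on average 3.41, 3.27, 3.28 and 3.37 of the 10 factors.

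Across the 3 epithelial states, the factors differed in how far they varied. Cebpa was highest in type 2-like cells and Foxp2 was highest in type 1-like cells. Foxa3 and Sox9 were highest in transitional cells and at 6.15 CPM or less in the other 2 states as a whole. Foxa1, Foxa2, Gata6, Klf5 and Elf3 did not reach 2-fold in every library between any 2 states, and Nkx2-1 was lowest in transitional cells in every library.

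Nkx2-1 stood at 245, 187, 261 and 219.5 CPM in type 2-like cells, at 363, 269, 414 and 305 CPM in type 1-like cells and at 173, 134, 124 and 138 CPM in transitional cells. The 3 states kept this order in all 4 libraries. The transitional over type 1-like log2 ratio was -1.07, -0.999, -1.73 and -1.14, so that 1 library fell just short of 2-fold. It passed in every library with means over cells, at clustering resolution 2 in the 2 libraries with enough cells, and with TMM factors, at -1.22, -1.07, -1.76 and -1.22 on the log2 scale.

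Foxa1 and Foxa2, the forkhead partners of NKX2-1, were lowest in type 2-like cells in every library. Foxa1 stood at 31.25, 25.3, 24.9 and 29.2 CPM in type 2-like, 40.5, 33.1, 55.7 and 45.0 CPM in type 1-like and 47.7, 41.5, 50.5 and 47.2 CPM in transitional cells. Foxa2 stood at 57.4, 43.4, 59.2 and 59.6 CPM in type 2-like, 82.1, 68.7, 120 and 94.5 CPM in type 1-like and 131, 103, 107 and 95.2 CPM in transitional cells. The type 1-like and transitional cells did not keep 1 order between them, and neither gene differed 2-fold in every library. With the factors among the clustering genes, Foxa2 did so between transitional and type 2-like cells. Foxa3, a FOXA factor better known from liver and gut, was at 0.551 [0.114, 1.61], 1.72, 3.30 and 2.92 CPM in type 2-like cells and at 2.38, 3.46, 4.28 and 4.602 CPM in type 1-like cells. In transitional cells it was at 40.0 [33.0, 48.1], 28.9, 23.4 and 22.3 CPM, so the lowest transitional value lay above the highest of the other 8. Outside the 3 states, Foxa3 averaged 28.0 CPM in the gastrointestinal-like cluster 4, against 28.7 CPM in the transitional cluster.

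Sox9, a factor of distal lung progenitors, showed the same split. It was at 1.10 [0.405, 2.40], 5.87, 1.502 and 3.62 CPM in type 2-like cells, at 1.43, 6.15, 3.75 and 6.06 CPM in type 1-like cells and at 93.4 [82.5, 105], 59.4, 45.7 and 54.2 CPM in transitional cells. Again the lowest transitional value lay above the other 8. The type 2-like clusters were not alike, with a mean Sox9 level of 0.939 CPM in cluster 6 and 14.8 CPM in cluster 13. Foxa3 and Sox9 passed the minimum of 10 CPM only through the transitional cells, so their passing the 2-fold rule carries no weight of its own. In that state Hnf4a was also high, at 142, 120.4, 130.3 and 118 CPM against 0.368 to 2.92 CPM in type 2-like cells.

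Cebpa, which type 2 cells need to mature, was highest in type 2-like cells among the 3 states. It stood at 198, 160.0, 189.5 and 165 CPM in type 2-like cells, at 87.3, 77.1, 69.0 and 68.8 CPM in type 1-like cells and at 78.3, 71.2, 52.6 and 50.02 CPM in transitional cells. The type 1-like over type 2-like log2 ratio was -1.17 [-1.41, -0.95], -1.04 [-1.18, -0.93], -1.44 [-1.74, -1.18] and -1.25 [-1.40, -1.13]. The transitional over type 2-like log2 ratio was -1.32 [-1.55, -1.13], -1.16 [-1.27, -1.07], -1.83 [-2.11, -1.59] and -1.71 [-1.85, -1.60]. The 2-fold call of the second comparison did not hold at clustering resolution 0.5 (-1.16, -0.96, -1.45 and -1.29) or with the factors among the clustering genes (-1.21, -0.84, -1.62 and -1.30), where the vehicle library after depletion fell short.

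The promoters of Foxa3 and Cebpa are shown because these factors differed in opposite directions between type 2-like and transitional cells. RefSeq promoter entries (GRCm38.p6) were found for 6 of the 10 factors, and the 250 bases before the start of transcription are printed 5′ to 3′ on the gene's strand, in lower case with motif matches in capitals. Foxa3 is at chr7:19023540-19023789 (minus strand, 68.8% GC) and Cebpa at chr7:35119043-35119292 (plus strand, 66.4% GC).
Foxa3: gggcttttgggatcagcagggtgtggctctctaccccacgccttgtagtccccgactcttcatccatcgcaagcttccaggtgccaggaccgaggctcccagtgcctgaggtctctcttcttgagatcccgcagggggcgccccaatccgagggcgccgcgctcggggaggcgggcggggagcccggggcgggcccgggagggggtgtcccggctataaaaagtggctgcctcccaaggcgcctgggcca
Cebpa: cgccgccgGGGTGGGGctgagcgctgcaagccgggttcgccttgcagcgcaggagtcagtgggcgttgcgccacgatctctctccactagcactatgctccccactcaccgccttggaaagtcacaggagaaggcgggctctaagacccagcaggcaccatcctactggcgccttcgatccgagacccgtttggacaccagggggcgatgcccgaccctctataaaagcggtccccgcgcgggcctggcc
Both strands of 32851 RefSeq promoters were searched for short cores of these factors' motifs. The FOXA core was searched as TGTTTAC, which 3.17% of promoters held, and as TGTTTGC, which 4.3% held. The NKX2-1 core CAAGTG was in 11.6% of promoters, the HNF4A core CAAAGTCC in 1.2%, the SOX core ACAATG in 10.7%, the GATA-factor core AGATAA in 9.99%, the KLF core CCCCACCC in 9.05%, the ETS core AGGAAGT in 7.69% and the CEBP core TTGCNNCAA in 1.74%. None of these motifs contains another, though matches may overlap. The Foxa3 window held 0 matches. The Cebpa window held 1, a KLF match on the opposite strand whose first base is at position -242 from the start. A match describes letters only, and no match says only that these letters are not in this window.

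Foxp2 stood at 156, 138, 107 and 130 CPM in type 2-like cells, at 294, 264, 407 and 415 CPM in type 1-like cells and at 82.1, 75.9, 53.3 and 70.3 CPM in transitional cells. The transitional over type 1-like log2 ratio was -1.83 [-2.06, -1.62], -1.79 [-1.90, -1.70], -2.91 [-3.19, -2.68] and -2.54 [-2.66, -2.46]. At clustering resolution 0.5 it was -0.84, -1.08, -1.91 and -1.77, and the vehicle library before depletion fell short of 2-fold. The transitional over type 2-like log2 ratio was -0.92, -0.85, -0.995 and -0.87, and at clustering resolution 0.5 it turned to 0.016, 0.085, 0.088 and 0.066. With the factors among the clustering genes it was 0.115 in the vehicle library after depletion and 0.461 and 0.321 in the tamoxifen libraries. The type 1-like over type 2-like log2 ratio was 0.91 [0.76, 1.06] and 0.94 [0.85, 1.03] in the vehicle libraries and 1.92 [1.74, 2.11] and 1.67 [1.59, 1.77] in those labelled tamoxifen, so it passed 2-fold in the latter only; the difference between treatments was not tested.

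Gata6 stood at 58.5, 63.7, 49.0 and 65.5 CPM in type 2-like, 98.75, 93.3, 113 and 121 CPM in type 1-like and 132, 122.5, 98.7 and 112 CPM in transitional cells. Klf5 stood at 115, 118, 98.5 and 122 CPM in type 2-like, 166.5, 168, 140.2 and 144 CPM in type 1-like and 311, 262, 207 and 198 CPM in transitional cells, the same order in every library, although with TMM factors the type 1-like over type 2-like log2 ratio was -0.14 in the tamoxifen library after depletion. Elf3 overlapped between the states, at 46.6 to 58.3 CPM in type 2-like, 36.4 to 62.1 CPM in type 1-like and 56.0 to 72.5 CPM in transitional cells, and its transitional over type 2-like log2 ratio was below 0 with TMM factors in 3 libraries (-0.16, -0.19 and -0.19).

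By the rule of 2-fold in every library, 1 of 8 factors with 10 CPM differed between type 1-like and type 2-like cells (Cebpa, lower), where 6.0% of all genes did (4.75% higher and 1.25% lower). Between transitional and type 2-like cells 3 of 10 differed (Foxa3 and Sox9 higher, Cebpa lower), where 27.4% of all genes did (20.2% higher and 7.17% lower). Between transitional and type 1-like cells 3 of 10 differed (Foxa3 and Sox9 higher, Foxp2 lower), where 11.7% of all genes did (6.42% higher and 5.3% lower). The share among the factors was thus close to the background for the second comparison. Of the 3 states, only the transitional one held 10 CPM of Foxa3 or Sox9, so their part in both counts with transitional cells carries no weight of its own. The median log2 ratio of the factors was 0.59, 0.85 and 0.20 in the 3 comparisons, and that of all genes 0.35, 0.48 and 0.11. With TMM factors, chosen after seeing the data, the medians of all genes moved to -0.01, 0.01 and 0.02. The called factors were then Cebpa alone, then Foxa3 and Sox9 higher with Foxp2 and Cebpa lower, then Foxa3 and Sox9 higher with Nkx2-1 and Foxp2 lower. Of all genes 5.63%, 22.3% and 11.6% were called. The Foxp2 ratio of the second comparison changed sign in every library at clustering resolution 0.5.

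**Figure D2:**
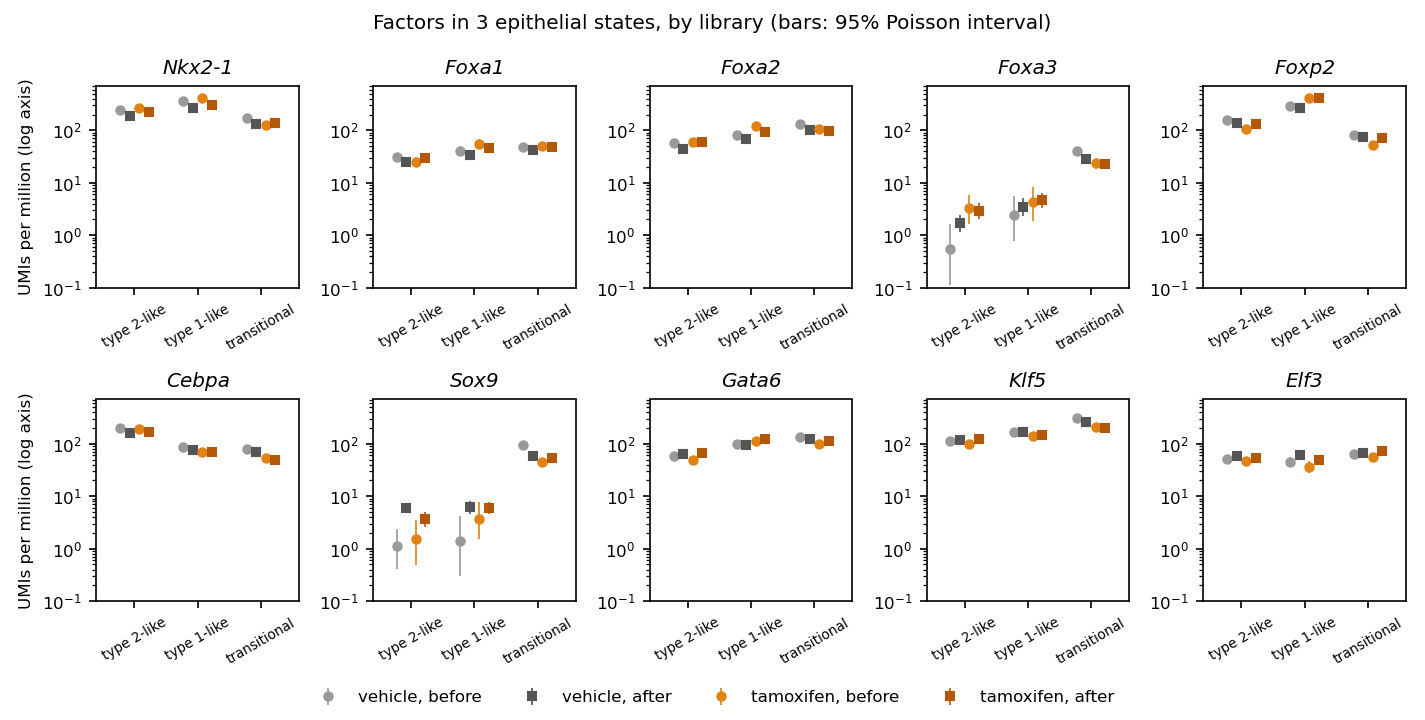
Level of each factor in CPM (logarithmic vertical axis) in the 3 epithelial states (horizontal axis), with 1 point per library and its 95% Poisson interval. Foxa3 and Sox9 stand at 22.3 CPM or more in transitional cells and at 6.15 CPM or less elsewhere, Cebpa is highest in type 2-like cells and Foxp2 in type 1-like cells.

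Other genes of the same programmes were described between transitional and type 2-like cells, where 20.2% of all genes were higher and 7.17% lower. Of 46 other lineage factors, 27 reached 10 CPM, 6 were higher (Etv4, Hopx, Sox4, Hnf4a, Klf2 and Klf4) and 7 were lower (Cebpd, Etv5, Irx1, Irx2, Irx3, Irx5 and Elf5). Hnf4a was under 10 CPM in type 2-like cells, so it passed the minimum through the transitional cells and had to differ. The lower ones include the Iroquois factor Irx1, at 270, 225, 264 and 228 CPM in type 2-like and 11.9, 20.7, 12.4 and 14.2 CPM in transitional cells, and Etv5, an ETS factor of type 2 cells, at 266, 200.4, 255 and 220 CPM against 20.7, 22.6, 21.7 and 24.2 CPM. Of 16 lung genes known as targets of these factors, 12 were lower and 1 (Hopx) higher. Apart from Scgb1a1, Scgb3a2 and Etv5, the lower ones are type 2 markers that named the states, so this count carries no weight of its own. The lower ones include Lyz2, at 20000 to 22680 CPM in type 2-like and 63.3 to 300.5 CPM in transitional cells, and Sftpc, at 157800 to 191000 CPM against 5255 to 12190 CPM; both are type 2 markers that defined the states. Of 17 gastric and intestinal genes that NKX2-1 is known to hold down, 8 were tested and all 8 were higher in transitional cells. All but Gkn2 and Tspan8 were under 10 CPM in type 2-like cells, so they passed the minimum through the transitional cells and had to differ. Gkn2 stood at 1256 to 3733 CPM against 9.01 to 81.8 CPM, and Ctse at 249.9 to 524 CPM against 0.184 to 3.27 CPM. Nkx2-1 itself was at 124 to 173 CPM in those transitional cells.

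The second question was whether the factors differed between tumours of mice given tamoxifen and vehicle. None of the 10 was 2-fold apart in both pairs of libraries over all epithelial-like cells, where 1.34% of 9035 genes were (0.376% higher and 0.963% lower), and no other scaling gave a call. The median log2 ratio of tamoxifen over vehicle was -0.04 for the factors and -0.02 for all genes. Smaller differences pointed the same way in both pairs for 7 of 10 factors, with counting intervals that left out 0, as for 47.2% of all genes; the 2 pairs come from the same suspensions. Of the 7, Nkx2-1, Foxa2 and Foxp2 were higher and Foxa3, Cebpa, Klf5 and Elf3 lower in the libraries labelled tamoxifen.

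Foxp2 had a log2 ratio of 0.37 [0.33, 0.42] before and 0.33 [0.31, 0.35] after depletion. Foxa2 had 0.23 [0.15, 0.32] and 0.36 [0.32, 0.40], and Nkx2-1 0.06 [0.02, 0.11] and 0.14 [0.12, 0.17]. Of the lower factors, Foxa3 had -0.38 [-0.61, -0.21] and -0.55 [-0.68, -0.49]. Klf5 had -0.40 [-0.46, -0.34] and -0.31 [-0.34, -0.28], Elf3 -0.41 [-0.53, -0.31] and -0.26 [-0.32, -0.22], and Cebpa -0.20 [-0.26, -0.14] and -0.10 [-0.13, -0.07]. Foxa1 (-0.16 and 0.12), Sox9 (-0.15 and 0.27) and Gata6 (-0.12 and 0.01) did not keep a direction.

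The median size of the log2 ratio over all genes was 0.16 in both pairs, and 7 of 10 factors exceeded it before depletion and 6 of 10 after it. The middle 90% of all genes lay between -0.48 and 0.37 before depletion and between -0.44 and 0.43 after it. All 10 factors lay inside that range before depletion, and 9 of 10 after it, with Foxa3 below. The mix of states differed as well: type 2-like cells were 31.7%, 21.1%, 16.1% and 13.0% of epithelial-like cells. Equal weight per cluster was tried only over clusters 1, 6 and 10, which had enough cells in every library. There Nkx2-1 turned to -0.26 and -0.04, Foxa2 before depletion to -0.004, and Sox9 and Gata6 after depletion to -0.18 and -0.003. The other clusters were left out, so these values do not show the effect of weighting all clusters equally.

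Between treatments the other genes of these programmes gave few calls. Of 46 other lineage factors, 28 were tested and 0 were 2-fold apart in both pairs; the largest differences were Elf5 (0.67 and 0.68), Irx2 (-0.89 and -0.39), Hnf4a (0.66 and 0.58) and Klf2 (0.76 and 0.42). Of 16 lung targets 0 passed, though Napsa, an aspartic protease that processes surfactant proteins, stood at 393.5 and 432 CPM in the libraries labelled tamoxifen against 771 and 822 CPM. Of 17 gastric and intestinal genes 11 were tested and 3 were lower with tamoxifen, namely Agr2 (17.4 and 40.4 against 71.6 and 116 CPM), Lgals4 (5.55 and 6.55 against 17.4 and 20.5 CPM) and Vil1 (8.04 and 9.26 against 21.8 and 22.0 CPM), where 0.963% of all genes were lower. Gkn2, a gastric gene of the same list, stood at 1991 and 2081 against 1613 and 2338 CPM. Within states the calls went both ways. In transitional cells, of 11 tested, Gkn1 and Onecut2 were higher (0.493% of all genes) and Anxa10, Vil1 and Lgals4 lower (0.94%). In type 1-like cells Gkn2 and Hnf4a were higher, of 3 tested (1.23% of all genes). Hnf4a stood there at 0.477 and 5.26 CPM with vehicle and at 21.4 and 24.0 CPM with tamoxifen. It thus reached 10 CPM only through the tamoxifen libraries. The gastrointestinal-like cluster 4, led by Ttr, Agr2 and Tff3, held 118, 1175, 15 and 139 cells; its part in these values was not tested.

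**Figure D3:**
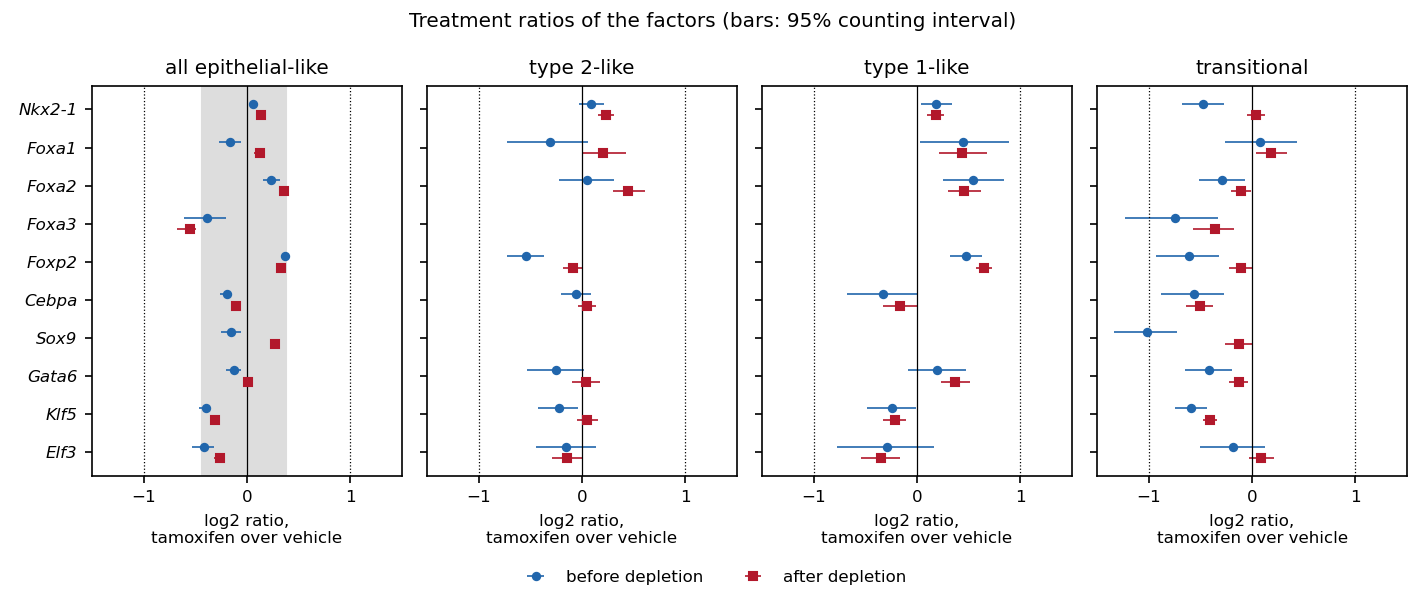
Log2 ratio of tamoxifen over vehicle (horizontal axis) for each factor (vertical axis) in all epithelial-like cells and in the 3 states, with circles before and squares after depletion, 95% counting intervals, dotted lines at 2-fold, and no point where a factor was under 10 CPM. The grey band in the left panel is the range -0.44 to 0.37 shared by the middle 90% of all genes in both pairs; Foxa3 after depletion (-0.55) lies below it.

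Within the states, 0 of 8 factors tested in type 2-like cells (0.117% of all genes called), 0 of 8 in type 1-like cells (1.46%) and 0 of 10 in transitional cells (1.43%) were 2-fold apart in both pairs. In transitional cells Klf5 stood at 207 and 198 CPM with tamoxifen against 311 and 262 CPM, a log2 ratio of -0.59 [-0.74, -0.44] and -0.40 [-0.47, -0.34]. Cebpa stood at 52.6 and 50.02 against 78.3 and 71.2 CPM, -0.56 [-0.88, -0.27] and -0.50 [-0.64, -0.38], and Foxa3 at 23.4 and 22.3 against 40.0 and 28.9 CPM, -0.75 [-1.23, -0.33] and -0.36 [-0.57, -0.17]. Both vehicle values lay above both tamoxifen values for 6 of 10 factors, these 3 with Foxp2, Sox9 and Gata6, as they did for 26.6% of all genes. The median log2 ratio there was -0.32 for the factors and 0.01 for all genes. Sox9 passed 2-fold before depletion only, at -1.01 [-1.34, -0.72] against -0.13 [-0.26, 0.002] after it. The transitional cells before depletion numbered 77 and 74.

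In type 1-like cells Foxp2 was higher with tamoxifen, with a log2 ratio of 0.47 [0.32, 0.63] before and 0.65 [0.57, 0.73] after depletion, but not within the clusters that make up the state. Cluster 7, led by Cyp2b10, Sec14l3 and Serpinb9, held 510 of 597 type 1-like cells in the vehicle library after depletion and 407 of 725 in the tamoxifen one. Cluster 12, led by Rtkn2, Cym and Sema3a, held the other 87 and 318 cells, and in the tamoxifen library before depletion it held 54 of 103. After depletion Foxp2 was at 161 and 170.0 CPM in cluster 7, a log2 ratio of 0.08 [-0.05, 0.21], and at 817 and 727 CPM in cluster 12, a log2 ratio of -0.17 [-0.27, -0.06]. The direction in the pooled type 1-like cells was thus not that of cluster 12.

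Foxa2 in the same cells did keep its direction. It was higher with tamoxifen by 0.54 [0.25, 0.84] and 0.45 [0.30, 0.62] in type 1-like cells, and after depletion by 0.44 [0.26, 0.64] in cluster 7 and 0.37 [0.05, 0.72] in cluster 12. Hnf4a went from 4.11 to 5.21 CPM in cluster 7 and from 11.4 to 48.0 CPM in cluster 12 after depletion.

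Of the 19 epithelial clusters, 4 had fewer than 50 cells in a library after depletion and so were not compared. They were clusters 11 (22 and 337 cells with vehicle and tamoxifen), 17 (11 and 1226), 19 (9 and 311) and 15 (309 and 3). The other 15 clusters are cut from the same pair of libraries, so they do not repeat each other. The share of all genes with a like agreement over clusters is not given. Among these 15, Foxa2 was higher with tamoxifen in 13, with a median log2 ratio of 0.37 and values from -0.15 to 0.78. Its counting interval included 0 in clusters 5 [-0.625, 0.974] and 14 [-0.279, 0.928] of these 13. The 2 clusters where it was lower were the transitional cluster 1 (-0.11) and cluster 3, led by Sprr1a, Acta2 and Krt17 (-0.15). Klf5 was lower in 12 of 15 (from -0.75 to 0.25) and Elf3 in 12 of 15 (from -0.85 to 0.26). Among these lower values, the counting interval of Klf5 included 0 in clusters 4, 7, 9, 10 and 13. That of Elf3 included 0 in clusters 2, 3, 6, 7, 12 and 13 and reached it in cluster 9. Nkx2-1 was higher in 11 (from -0.57 to 0.51), Foxa1 in 11, Gata6 in 10 and Foxp2 in 9, and Cebpa was lower in 10 (from -0.50 to 0.61). The 2 values past 2-fold were Sox9 in cluster 3 (31.9 against 72.9 CPM, 1.17 [0.87, 1.52]) and Foxa3 in cluster 5 (14.1 against 4.25 CPM, -1.52 [-3.31, -0.26]), where 5.13% and 14.9% of all genes tested in these clusters were as far apart.

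**Figure D4:**
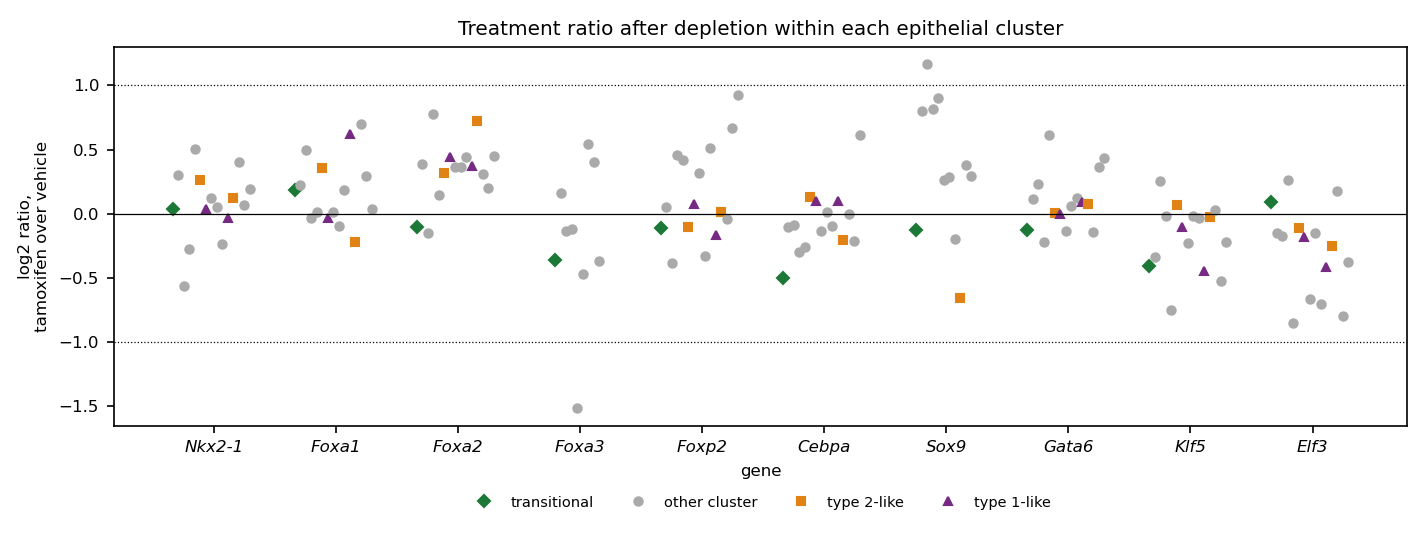
Log2 ratio of tamoxifen over vehicle after depletion (vertical axis) for each factor (horizontal axis), with 1 point per epithelial cluster in which the factor reached 10 CPM, coloured by state, and dotted lines at 2-fold. Foxa2 lies above 0 in 13 of 15 clusters, while Klf5 and Elf3 lie below 0 in 12 of 15 each. Counting intervals, several of which include 0, are not drawn, and the share of all genes with a like agreement is not given. All clusters come from the same pair of libraries.

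The clusters also show how far the factors vary within the epithelium. Over 19 clusters, with levels averaged over libraries with 30 cells, Foxa1 ranged 2.16-fold (27.0 to 58.2 CPM), Klf5 2.61-fold, Gata6 2.78-fold, Elf3 3.95-fold and Foxa2 5.75-fold. Nkx2-1 ranged 12.0-fold, Foxa3 14.6-fold, Cebpa 15.9-fold and Foxp2 46.1-fold, and Sox9 ranged from 0.939 CPM in the type 2-like cluster 6 to 167 CPM in cluster 18. All 19 clusters held at least 10 CPM of 8 of the factors, while Foxa3 did so in 8 clusters and Sox9 in 15. A single cluster set the lower end of Nkx2-1, Cebpa and Foxp2: cluster 18, led by Inhba, Npy and Fbln2, stood at 34.1, 15.8 and 33.7 CPM, while the next lowest clusters of Nkx2-1 and Cebpa were at 142 and 43.3 CPM.

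The high end of Foxp2 was at clusters led by long genes. Its 4 highest clusters were 5 (1552 CPM, between 1277 and 1703 by library), 15 (726.5 CPM), 12 (713 CPM) and 10 (449 CPM). These are also the 4 clusters with the longest leading genes, of median length 255, 300, 137 and 197 kb, where the next cluster had 53.0 kb. Over the 19 clusters the Spearman rho of Foxp2 with that length was 0.87, given as a description because the clusters share libraries. Nkx2-1, which spans 5.0 kb, had a rho of 0.62 with the same length. The 3 genes most like Foxp2 in pattern, Ncoa1, Tcf7l1 and Zfp704, span 229.8, 162.9 and 183.1 kb. Cluster 5 also had the lowest median UMIs per cell (6787, against 10430 to 32219 in the others), the highest median mitochondrial share (13.0%, against 2.1% to 5.05%) and the most Malat1, a nuclear RNA (49360 CPM, against 5568 to 27000). The part of RNA quality and of intronic reads in the Foxp2 values was not tested; without cluster 5 the treatment log2 ratio of Foxp2 was 0.32 and 0.29. Sox9 instead followed depth, with a rho of 0.81 with the clusters' median UMIs per cell.

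**Figure D5:**
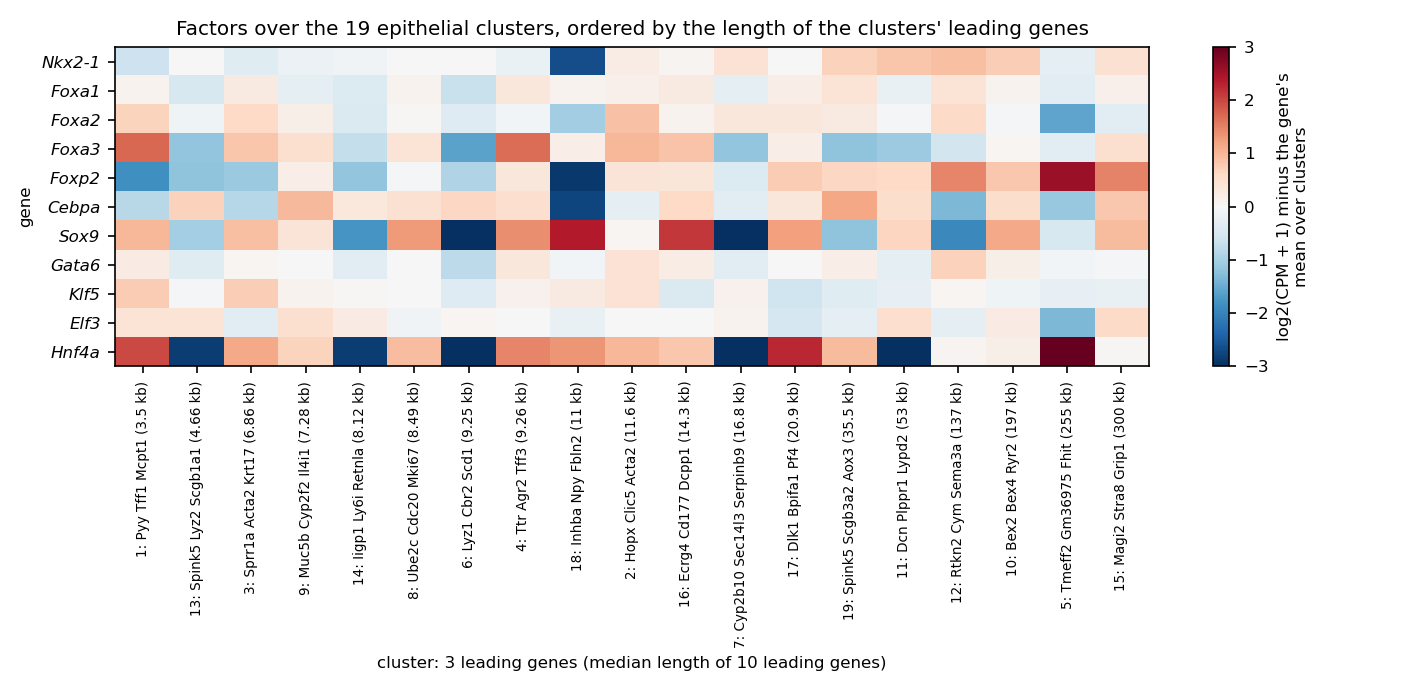
Log2 of CPM plus 1 for each factor and Hnf4a (vertical axis) minus that gene's mean over the 19 epithelial clusters, with clusters ordered along the horizontal axis by the median length of their 10 leading genes and colours clipped at 3. The 4 clusters at the right end, with leading genes of 137 kb or more, are the 4 highest of Foxp2, and cluster 18 is the lowest of Nkx2-1, Cebpa and Foxp2.

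Among the factors themselves, the closest pairs over the 19 clusters were Foxa1 with Gata6 (Pearson r 0.84), Foxa3 with Sox9 (0.73), Nkx2-1 with Foxp2 (0.67) and Nkx2-1 with Cebpa (0.64), and the lowest was Foxp2 with Klf5 (-0.54). Among 5719 genes, the one most like Nkx2-1 was Mbip (0.90), which lies 186.1 kb away on chromosome 12 on the same strand. The genes most like Cebpa were Gstp3 (0.94), Tgoln1 (0.93) and the surfactant gene Sftpb (0.92). Sox9 was most like Etv4 (0.90), an ETS factor, and Foxa3 most like Vasp (0.92). The most similar gene was Eif2a for Foxa1 (0.93), Pcif1 for Foxa2 (0.87), Pllp for Gata6 (0.87), Grasp for Klf5 (0.89) and Ndufv3 for Elf3 (0.87). These correlations are descriptions over clusters that share libraries and depth.

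Within single cells thinned to 5000 UMIs, a Hnf4a UMI was found in 13.0% [10.4, 15.9] of epithelial-like cells with a Nkx2-1 UMI and in 16.8% [12.7, 21.6] of those without in the vehicle library before depletion. The shares were 14.2% and 19.8%, 16.2% and 25.2%, and 19.9% and 25.4% in the other 3 libraries, lower with Nkx2-1 in each. Inside the transitional state no 1 order was seen, at 46.2% and 41.2%, 36.0% and 37.2%, 58.1% and 33.3%, and 34.3% and 36.9%. A Cebpa UMI was found with and without Nkx2-1 in 52.2% against 47.6%, 46.0% against 41.6%, 47.0% against 41.9% and 45.25% against 37.7%.

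The factors also differed between the portions before and after bead depletion, by less than 2-fold. Between portions of the same suspension, 0 of 10 differed 2-fold in both treatments, where 0.113% of all genes did. Nkx2-1 was lower after depletion by -0.32 [-0.36, -0.28] with vehicle and -0.24 [-0.27, -0.20] with tamoxifen, and Cebpa by -0.33 [-0.38, -0.28] and -0.23 [-0.28, -0.19]. Foxp2 was higher, by 0.18 [0.14, 0.22] and 0.14 [0.10, 0.17]. These gaps between portions of 1 suspension were as large as several of the treatment ratios, among them those of Nkx2-1 and Cebpa.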

How the data were processed

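Single cells in 4 libraries of mouse lung tumours, from 1 suspension per treatment before and after depletion, were captured with 10x 3′ v3 chemistry, per the labels' protocols. The deposited counts are whole UMI counts per gene and cell barcode, made by the authors with Cell Ranger, version 7.0.1 per the file headers and 7.2.0 per the submitters' processing notes, on build mm10. One allele that all groups share is not reported here. The annotation and the use of introns and strand are not given in the sources used here. The members and gene lists were chosen with earlier results of these data known.

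Barcodes with fewer than 200 genes or with over 20% mitochondrial UMIs were dropped. Scrublet's own threshold marked 192, 1, 91 and 0 cells, so it had not worked in the libraries after depletion, and cells with a doublet score above 0.25 were removed instead (216, 126, 122 and 156), a limit chosen after seeing this. The libraries kept 7088, 6917, 6105 and 7355 cells with a median of 9311.5, 17702, 9885 and 16486 UMIs. Cells were clustered with scanpy 1.11.5 (2000 variable genes, 40 components for all cells and 30 for epithelial-like cells, 15 neighbours, Leiden resolution 1) and classes and states were named from marker lists. A mixed cluster of 197 epithelial-like cells led by the immune genes Ccl6, Chil3 and Il1b was set aside after seeing the data.

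UMIs were summed per class and library and divided by the class total (CPM). Ratios are log2 of CPM plus 1, and intervals are 95% exact Poisson (levels), conditional binomial (ratios, without the added 1) or Clopper-Pearson (shares). PCR and cell-to-cell variation are outside them, so they cover counting error only. A count of 0 allows up to 3 counts. Each group has 1 library, and portions before and after depletion come from the same suspensions and are not replicates, so no test was made. A gene was called when it reached 10 CPM on either side and its ratio was 2-fold or more, in 1 direction, for each pair of libraries (treatment, depletion) or in every library with 50 cells of both states, or 30 cells of the other class. On simulated data, 100 of 100 genes changed 3-fold were called in epithelial-like cells (8902 genes tested) and 95 of 100 in transitional cells (8622 genes tested). In either, 0 unchanged genes were called. The simulated counts had Poisson error only, around a mean per gene shared by all libraries. They held no variation between animals, tumours, libraries or mixes of states, so they cannot show how often such variation gives a call.

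The named genes were the 10 members in every library, the 3 genes with the highest Pearson correlation of log2(CPM + 1) to each over epithelial clusters among genes reaching 50 CPM, the called genes of the 3 lists and up to 4 of each list with the largest mean ratio. Scaling alternatives used TMM (edgeR 4.0.16) and size factors (DESeq2 1.42.0), and no count model was fitted. Gene positions come from GENCODE M21 (GRCm38) and promoters from RefSeq (GRCm38.p6).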

Additional observations from a re-analysis of the deposited data

Results flagged for a closer look

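Foxa2 was higher in type 1-like cells of the libraries labelled tamoxifen, with a log2 ratio to vehicle of 0.54 before and 0.45 after depletion. In transitional cells it was lower, at -0.29 and -0.11. Every pair of libraries of the first state thus pointed one way and every pair of the second the other way. The difference between the states was not tested, since each group has 1 library.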

How the results depend on the processing

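The count of 0 factors 2-fold apart between treatments over all epithelial-like cells held under each scaling, pseudocount, minimum, cell filter and cluster weight tried and at folds of 1.5 and 4; within each state it held at a fold of 1.5, without a minimum and with means over cells, which were chosen after seeing the data, as were TMM factors over states and leaving out cluster 5. Between states the counts depended more on the choices. The count for type 1-like over type 2-like cells was 1, where 6.0% of all genes were called. It was 2 (Foxp2 and Cebpa) at a fold of 1.5 (16.7% of all genes) and 3 (Foxp2, Cebpa and Gata6) at clustering resolution 2 (18.1%). It was also 3 with the factors among the clustering genes (16.1%), the latter 2 settings with 3 libraries of enough cells. States at other clustering settings hold other cells. The count for transitional over type 2-like cells was 3, where 27.4% of all genes were called. It was 8 at a fold of 1.5 (45.6% of all genes), which leaves Nkx2-1 and Elf3 uncalled. It was 4 with TMM factors (22.3%) and 2 at clustering resolution 0.5 (25.4%). The median share of cells with a UMI moved from 31.4% to 15.6% when cells were thinned to 2000 UMIs and to 69.5% without thinning, so shares are tied to depth. TMM factors and DESeq2 size factors changed 0 signs of the 20 treatment ratios. Equal weight for clusters 1, 6 and 10, with the other clusters left out, changed 5. Of the alternative values of counts and median shares, 48 stayed within 1.5 times or the counting interval and 6 moved. Of the alternative ratios and shares of single factors, 511 stayed within the counting interval of the main value and 379 moved. No called value changed sign. Leaving out a library leaves a group with none, so it was not run. No paired analysis was possible because each group has 1 library and the labels carry no replicate numbers. Animals, tumours and replicate spread are unknown here, and 77 and 74 transitional cells stand behind the values before depletion. Low counts, as for Foxa3 and Sox9 in type 2-like cells, are limited by depth.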

Other observations

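Cluster 18 held 14, 105, 4 and 84 cells of the 4 libraries and was led by Inhba (an activin subunit), Npy, Fbln2 and Vim (vimentin, an intermediate filament of mesenchymal cells). Nkx2-1 was between 31.8 and 36.4 CPM there in the libraries with 30 cells, Cebpa between 12.3 and 19.3 CPM and Foxp2 between 22.9 and 44.4 CPM, while Sox9 averaged 167 CPM and Hnf4a 80.1 CPM. It was not part of the 3 states.

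Hnf4a, the floxed gene, was higher with tamoxifen in 9 of the 11 clusters tested after depletion, all cut from the same pair of libraries. The largest log2 ratio was in cluster 10, led by Bex2, Bex4 and Ryr2, at 7.26 against 48.2 CPM (2.58 [2.37, 3.11]). An antisense gene, Hnf4aos, overlaps it and held 12.4% as many UMIs.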
